A study of Mus musculus with 64 samples.

Results

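A set of 9 genes whose products act on clock proteins or on NAD was followed across microglia of 2 brain regions. They were the protein kinases Csnk1d, Csnk1e and Gsk3b, the F-box proteins Btrc and Fbxw11, the deubiquitinase Usp2, and the NAD genes Nampt, Sirt1 and Parp1. All 9 were chosen by name and found in the gene count table, which lists 49671 genes. The cells were microglia of adult male C57BL/6 mice (C57BL6/N in the study's methods), enriched with magnetic beads against CD11b, and total RNA was sequenced after ribosomal RNA depletion. The 64 libraries formed 16 groups of 4. A group combined the hippocampus or the frontal cortex, a day or night label, and a condition named Soci, Cogn, Ctr0 or Ctr1, whose meaning the labels do not spell out. No genetic alteration is named for any group. CD11b is shared by microglia and other myeloid cells, so the bead step does not separate them. The animals lived under a reversed light cycle, dark during laboratory daytime. The study sampled microglia in the light and in the dark phase, and the labels do not state which of them "day" stands for. Nothing in the labels ties the libraries to animals, so p-values measure the spread between these samples.

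The transcriptional clock is closed by PER and CRY proteins, which repress their own activators and must then be removed for a new cycle. Casein kinase 1 delta (Csnk1d) and epsilon (Csnk1e) phosphorylate PER proteins and mark them for the F-box proteins beta-TrCP1 (Btrc) and beta-TrCP2 (Fbxw11), the substrate receptors of an SCF ubiquitin ligase, whereas deubiquitinases such as USP2 take ubiquitin off clock proteins. A further loop runs through NAD: NAMPT catalyses the rate-limiting step of NAD salvage, its gene is a known clock target in liver and other tissues, and the NAD-dependent enzymes SIRT1 and PARP1 act on clock proteins in turn.

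Clock transcripts were read first, as a check of the phase labels. Nr1d1, encoding the repressor REV-ERB alpha, ranged from 1.99 to 7.58 CPM (counts scaled to a common library size) in hippocampal day libraries and from 5.12 to 30.8 CPM in night libraries. Per2 was higher in day by 1.12 on the log2 scale in hippocampus and 1.27 in frontal cortex, Cry1 by 1.29 and 1.25, whereas the log2 difference of Nr1d1 was -1.87 and -1.84. Cry1 did not overlap between the phases in either region and Per2 did not in frontal cortex, whereas Nr1d1 overlapped in both regions and Per2 in hippocampus. These transcripts differed between the labels in both regions, and a light phase was not assigned from them. Differences below are given as day relative to night by label, not as light relative to dark.

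Total counts per library ranged from 10.2 M to 84.5 M, with a median of 15.9 M, and 4 abundant loci (Gm26917, Gm42418, Gm23935 and the mitochondrial ribosomal RNA gene mt-Rnr2) took between 30.3% and 60.9% of them. The lowest count of any of the 9 genes in any library was 124 (Sirt1). The 8 microglia markers were all present and together reached a median of 15150 CPM in hippocampal day and 12940 CPM in hippocampal night libraries. In frontal cortex the same sums were 16680 and 13200 CPM, so all 8 microglia markers were higher on average in day in both regions. Markers of other cell types also moved with the phase, and none was absent from every library. The 6 border macrophage markers summed to a median of 322 CPM (191 to 411) in hippocampal day and 161 CPM (95.1 to 213) in night libraries, and to 369 CPM (215 to 445) and 215 CPM (117 to 305) in frontal cortex, with 6 of 6 higher in day. Choroid plexus markers went the other way, from 1616 CPM at night to 264 CPM in day in hippocampus and from 87.7 to 22.6 CPM in frontal cortex, with 6 of 6 lower in day. Medians were lower in day in both regions for neurons (106 against 134 CPM in hippocampus and 87.8 against 138 CPM in frontal cortex), astrocytes (377 against 532 CPM and 431 against 754 CPM), oligodendrocytes (123 against 193 CPM and 124 against 187 CPM) and endothelial cells (410 against 509 CPM and 409 against 460 CPM). Neutrophil and monocyte markers had medians of 17.6 and 17.2 CPM in hippocampus and 27.9 and 32.2 CPM in frontal cortex, and dissociation response genes 111 and 103 CPM, and 112 and 92.2 CPM, for day and night in turn. In such bulk samples, fewer cells of a type and less RNA per cell cannot be told apart.

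Per kilobase of exon, the casein kinases and Usp2 had the highest mean levels of the 9 genes and Btrc the lowest. The mean over 64 libraries was 25.6 CPM per kilobase for Csnk1e, 18.7 for Csnk1d, 17.5 for Usp2, 15.7 for Fbxw11, 11.5 for Gsk3b, 10.3 for Parp1, 6.04 for Nampt, 2.98 for Sirt1 and 1.12 for Btrc. Csnk1e stood at percentile 96.1 of the 17140 genes that passed the count filter, Sirt1 at 54.3 and Btrc at 31. Most of this order held library by library. Csnk1e exceeded Csnk1d, Fbxw11 exceeded Gsk3b, Nampt exceeded Sirt1 and Sirt1 exceeded Btrc in 64 of 64 libraries, and Parp1 exceeded Nampt in 63. The neighbours Csnk1d and Usp2 kept their order in only 47 libraries, Usp2 and Fbxw11 in 50 and Gsk3b and Parp1 in 56, so these pairs were not separated by their spread. Both F-box proteins serve the same ligase, yet the level of Fbxw11 per kilobase was above that of Btrc throughout. The place of Btrc depends on its annotated exon length of 16.9 kilobases, the longest of the 9 genes. In CPM without length, Btrc averaged 20.3 and Sirt1 13.9 in hippocampal night libraries, and 16.85 and 17.49 in day.

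The region upstream of the transcription start is where clock factors can bind, so it is shown for 4 genes: Sirt1 and Usp2, which had the largest day-night differences, and Nampt and Parp1, which had none past the threshold. Each line gives the 250 bases before a RefSeq start site on the gene's strand, 5′ to 3′, in build GRCm38.p6, with matches to the E-box CACGTG, the site of the CLOCK and BMAL1 activators, in capitals. The windows are chr10:63339036-63339285 on the minus strand for Sirt1, chr1:180568641-180568890 on the plus strand for Parp1, chr9:44084670-44084919 on the plus strand for Usp2 and chr12:32820085-32820334 on the plus strand for Nampt. The start sites of Usp2, Sirt1 and Nampt lie inside the annotated genes. On its own strand Usp2 begins at 44067021 on chromosome 9, Sirt1 at 63381704 on chromosome 10 and Nampt at 32819545 on chromosome 12. Their windows are thus not those of the outermost annotated starts.
Sirt1: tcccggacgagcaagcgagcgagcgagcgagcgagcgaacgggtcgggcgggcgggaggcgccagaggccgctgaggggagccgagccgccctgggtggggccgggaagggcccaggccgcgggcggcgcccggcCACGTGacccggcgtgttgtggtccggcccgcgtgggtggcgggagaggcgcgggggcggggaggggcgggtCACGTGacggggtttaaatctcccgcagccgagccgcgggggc
Parp1: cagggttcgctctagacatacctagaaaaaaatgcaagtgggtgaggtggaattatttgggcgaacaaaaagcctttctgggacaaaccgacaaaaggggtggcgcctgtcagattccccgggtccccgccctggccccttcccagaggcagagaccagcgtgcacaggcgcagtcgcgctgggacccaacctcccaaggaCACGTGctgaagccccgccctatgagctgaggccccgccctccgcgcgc
Usp2: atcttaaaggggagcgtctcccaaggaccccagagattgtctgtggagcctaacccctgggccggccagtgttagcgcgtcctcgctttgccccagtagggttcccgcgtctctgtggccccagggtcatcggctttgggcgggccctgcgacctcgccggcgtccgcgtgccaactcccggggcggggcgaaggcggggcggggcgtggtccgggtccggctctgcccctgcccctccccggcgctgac
Nampt: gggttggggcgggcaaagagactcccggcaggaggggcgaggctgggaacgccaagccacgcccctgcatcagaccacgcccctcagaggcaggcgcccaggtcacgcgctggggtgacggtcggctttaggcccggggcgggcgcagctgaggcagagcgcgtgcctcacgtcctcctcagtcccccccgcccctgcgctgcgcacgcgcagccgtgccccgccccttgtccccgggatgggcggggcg
Sirt1 held 2 matches, at -115 to -110 and at -43 to -38 from the start site, and Parp1 held 1, at -49 to -44. The windows of Usp2 and Nampt held none. RefSeq windows were matched for 7 of the 9 genes (10 windows, 4 of them for Csnk1e), without Csnk1d and Btrc. Beside the E-box, the D-box TTATGTAA, the REV-ERB and ROR element TNAGGTCA and the cyclic AMP response element TGACGTCA were searched on both strands, and none of these 3 was found in any of the 10 windows. Of all 32851 windows of this length, 6.02% held the E-box, 0.819% the D-box, 3.99% the REV-ERB and ROR element and 1.55% the cyclic AMP response element. No overlap between different motifs occurred among these matches, and a match is a description of the letters only.

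In hippocampal microglia, 7 of the 9 genes differed between day and night: Csnk1d, Csnk1e, Gsk3b, Fbxw11, Usp2 and Sirt1 were higher in day, and Btrc was lower. The same 7 genes passed in frontal cortex, in the same directions. How many of all genes passed in both regions in the same direction was not counted. Nampt and Parp1 passed in neither region. Of all genes tested, 42.2% were called in hippocampus (23.4% higher and 18.8% lower in day) and 41.8% in frontal cortex (20.6% higher and 21.3% lower), so a call was common in these data. The median log2 difference of the 9 genes was 0.17 in hippocampus and 0.13 in frontal cortex, beside 0.02 and -0.02 for all genes. All tests were edgeR quasi-likelihood tests of 16 day against 16 night libraries, with Benjamini-Hochberg adjustment over all genes at a threshold of 0.05. Levels are CPM scaled over all 64 libraries, and log2 differences come from a fit within the region, so the ratio of 2 levels need not equal the fitted change.

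**Figure D1:**
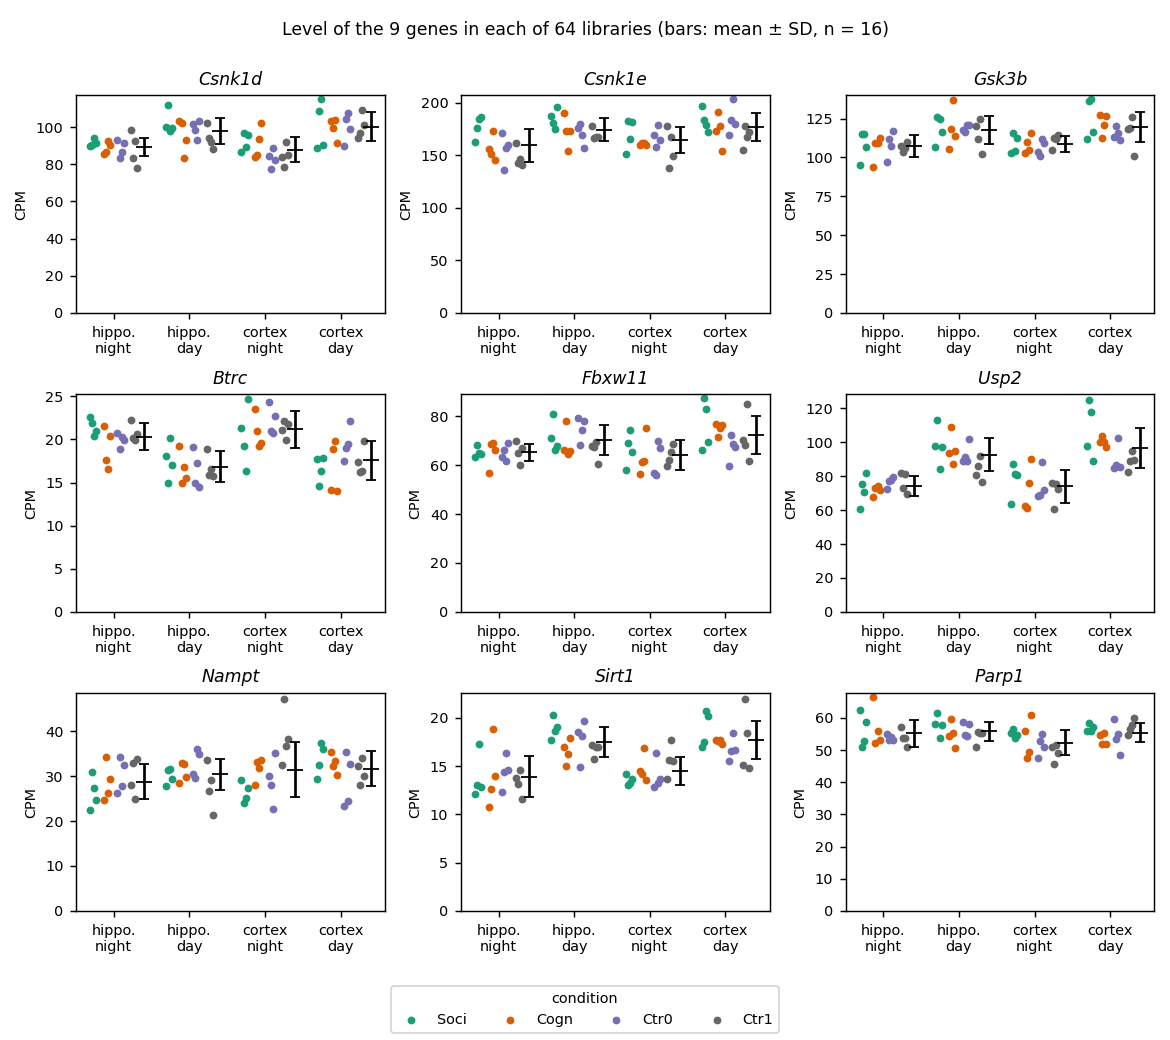
Level in CPM (vertical axis, from 0) of each of the 9 genes in every library, by region and phase, coloured by condition, with the mean and SD of 16 libraries beside the points. Usp2 and Sirt1 show the clearest step up from night to day in both regions and Btrc the step down, whereas the Nampt and Parp1 points of the phases lie over each other.

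Among the kinases, Csnk1d ranged from 83.3 to 112 CPM (median 98.9) in hippocampal day libraries and from 78.2 to 98.6 CPM (median 90.3) in night libraries. In frontal cortex it ranged from 88.9 to 115 CPM (median 100) in day and from 77.7 to 102 CPM (median 86.1) at night. The phases overlapped, but 14 of 16 hippocampal and 16 of 16 cortical day libraries lay above the night median. Csnk1d was 1.12-fold higher in day in hippocampus (log2 0.17, SE 0.0336, adjusted p = 0.000148) and 1.14-fold in frontal cortex (log2 0.18, SE 0.0401, adjusted p = 0.000492). Without replicate 2 the hippocampal adjusted p was 0.0517.

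Csnk1e, the more abundant casein kinase, ranged from 154 to 196 CPM (median 174) in hippocampal day libraries and from 136 to 186 CPM (median 158) in night libraries. The cortical ranges were 154 to 204 CPM (median 178) and 137 to 182 CPM (median 163). In each region 14 of 16 day libraries were above the night median. The change was 1.12-fold in hippocampus (log2 0.17, SE 0.0423, adjusted p = 0.00195) and 1.07-fold in frontal cortex (log2 0.10, SE 0.0385, adjusted p = 0.0289), the weakest of the called changes. It lost the threshold in frontal cortex when replicate 1, 2 or 3 was left out of every group (adjusted p = 0.0582, 0.228 and 0.0771) and in hippocampus without replicate 1 or 2 (0.0777 and 0.0909).

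Gsk3b, a kinase that phosphorylates PER2, CRY2 and REV-ERB alpha, ranged from 102.5 to 137 CPM (median 118) in hippocampal day libraries and from 93.8 to 117 CPM (median 108) in night libraries. In frontal cortex it ranged from 101 to 138 CPM (median 118) in day and from 101 to 116 CPM (median 110) at night. Here 10 of 16 cortical day libraries exceeded every night library. Above the night median lay 13 of 16 hippocampal and 15 of 16 cortical day libraries. Its rise was 1.12-fold in hippocampus (log2 0.17, SE 0.0384, adjusted p = 0.000714) and 1.10-fold in frontal cortex (log2 0.13, SE 0.0359, adjusted p = 0.00364).

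The F-box proteins moved in opposite directions. Btrc ranged from 14.4 to 20.1 CPM (median 16.7) in hippocampal day libraries and from 16.6 to 22.6 CPM (median 20.4) in night libraries, and from 14.0 to 22.1 CPM (median 17.6) and 16.3 to 24.7 CPM (median 21.1) in frontal cortex. It was the only one of the 9 genes with lower values in day, where 16 of 16 hippocampal and 15 of 16 cortical libraries lay below the night median. Btrc fell in hippocampus (log2 -0.23, SE 0.0476, adjusted p = 0.000173) and in frontal cortex (log2 -0.27, SE 0.0579, adjusted p = 0.000346), to 0.85 and 0.827 of its night level.

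Fbxw11, its paralogue, ranged from 60.4 to 80.9 CPM (median 67.9) in hippocampal day libraries and from 57 to 69.8 CPM (median 65.6) in night libraries. In frontal cortex the ranges were 59.6 to 87.4 CPM (median 71.0) and 56.0 to 75.2 CPM (median 63.7). The phases overlapped widely, with 14 of 16 day libraries above the night median in each region. The rise was 1.10-fold in hippocampus (log2 0.14, SE 0.0384, adjusted p = 0.0031) and 1.12-fold in frontal cortex (log2 0.17, SE 0.0515, adjusted p = 0.00905). Both fell short without replicate 2 (adjusted p = 0.0717 and 0.094), and the hippocampal one without replicate 1 (0.112). The CPM ratio of Fbxw11 to Btrc, chosen after their values were seen and given without a test, had a median of 4.16 in day against 3.16 at night in hippocampus and 3.86 against 2.93 in frontal cortex, and the phases overlapped in both regions. For Csnk1e over Csnk1d the medians were 1.82 and 1.80 in hippocampus and 1.73 and 1.89 in frontal cortex, also with overlapping ranges.

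Usp2 had the largest change of the 3 ubiquitin genes. It ranged from 76.3 to 113 CPM (median 91.7) in hippocampal day libraries and from 60.6 to 82.1 CPM (median 73.8) in night libraries, and 14 of 16 day libraries exceeded every night library. In frontal cortex the ranges were 82.7 to 125 CPM (median 96.2) and 60.5 to 90.2 CPM (median 74.1). There 9 of 16 day libraries exceeded every night library. The phases thus overlapped in both regions, but every day library of either region lay above the night median. Usp2 was 1.28-fold higher in day in hippocampus (log2 0.35, SE 0.0469, adjusted p = 3.96e-07) and 1.30-fold in frontal cortex (log2 0.38, SE 0.0619, adjusted p = 1.62e-05).

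Among the NAD genes, the deacetylase gene Sirt1 changed. It ranged from 14.9 to 20.3 CPM (median 17.4) in hippocampal day libraries and from 10.8 to 18.8 CPM (median 13.5) in night libraries. In frontal cortex the ranges were 14.8 to 21.97 CPM (median 17.6) and 12.8 to 17.7 CPM (median 13.9). All 16 day libraries lay above the night median in each region, and 13 hippocampal night libraries were below every day library. The rise was 1.29-fold in hippocampus (log2 0.37, SE 0.0621, adjusted p = 1.53e-05) and 1.22-fold in frontal cortex (log2 0.28, SE 0.0544, adjusted p = 0.000133).

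Nampt, the gene of the NAD salvage enzyme, ranged from 21.4 to 36.1 CPM (median 30.1) in hippocampal day libraries and from 22.6 to 34.3 CPM (median 27.9) in night libraries. Its cortical ranges were 23.4 to 37.4 CPM (median 32.4) and 22.6 to 47.1 CPM (median 31.0), with both the lowest and the highest value at night. Above the night median lay 13 of 16 hippocampal and 10 of 16 cortical day libraries. The log2 difference was 0.11 in hippocampus (95% interval -0.02 to 0.24, adjusted p = 0.162) and 0.01 in frontal cortex (95% interval -0.16 to 0.17, adjusted p = 0.962). These intervals do not exclude a difference within their bounds, and Nampt was the most variable of the 9 genes within groups, with a pooled SD of 0.185 on the log2 CPM scale against 0.092 for Parp1. An intron of Nampt holds the non-coding gene Gdap10 on the same strand, which shares no exon base with it and had 17818 counts in all libraries against 35558 for Nampt.

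Parp1, encoding a DNA damage sensor that consumes NAD, was the steadiest. It ranged from 50.7 to 61.6 CPM (median 55.4) in hippocampal day and from 50.9 to 66.6 CPM (median 53.8) in night libraries. In frontal cortex it ranged from 48.6 to 59.8 CPM (median 55.6) and from 45.6 to 61.0 CPM (median 52.3). The phases covered almost the same range, with log2 differences of 0.05 (95% interval -0.02 to 0.12, adjusted p = 0.224) and 0.08 (95% interval 0.003 to 0.15, adjusted p = 0.0886). Even so, 13 of 16 day libraries lay above the night median in each region, as many as for Gsk3b in hippocampus.

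**Figure D2:**
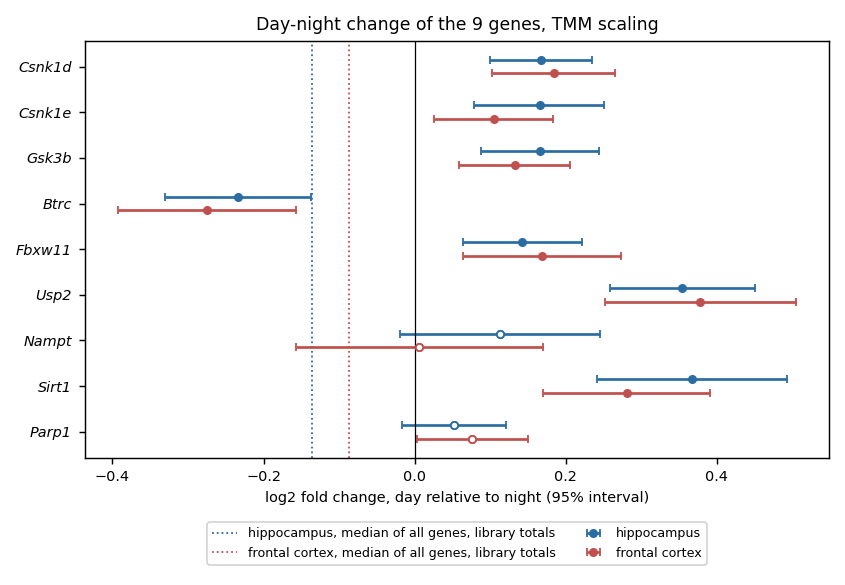
Fitted log2 fold change of day relative to night (horizontal axis) for each gene with its 95% interval, in hippocampus and frontal cortex (n = 16 against 16), filled where the adjusted p was under 0.05. Dotted lines mark where the median of all genes moves when library totals replace TMM scaling, -0.136 in hippocampus and -0.087 in frontal cortex, which is about the size of the smaller rises.

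These rises were small, and their sign depended in part on the scaling. With library totals in place of trimmed mean of M values (TMM) scaling, the median of all genes moved from 0.02 to -0.14 in hippocampus and from -0.02 to -0.09 in frontal cortex, and the share of calls that were higher in day went from 55.5% to 6.1% and from 49.2% to 16.1%. Under that scaling Csnk1e (-0.0011) and Fbxw11 (-0.0142) no longer had a positive log2 value in hippocampus, and Btrc passed in both regions and Usp2 in frontal cortex (27.6% and 27.1% of all genes passed in hippocampus and frontal cortex). Relative to the median of all genes, Usp2 in hippocampus stood at 0.33 and Sirt1 at 0.34 under both scalings. Btrc stood at -0.26 with TMM and -0.24 with library totals. A change of scaling moves all genes nearly alike, so this closeness follows from subtracting the median. It is no check of the calls.

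Marker scores of other cell types moved with the same contrast. The microglia list did too, with medians of 15150 against 12940 CPM in hippocampus and 16680 against 13200 CPM in frontal cortex. It was not used as a covariate, and its part in the differences of the 9 genes was not tested. With the border macrophage score as a covariate, none of the 9 genes passed in hippocampus (3.66% of all genes did) or frontal cortex (6.77%), while 0 and 2 had an unadjusted p under 0.05. Usp2 then had a log2 difference of 0.13 in hippocampus and 0.22 in frontal cortex, Sirt1 0.16 in both, and Btrc -0.05 and -0.14. With the scores of 7 other cell types together, no gene passed in hippocampus and only Btrc did in frontal cortex (log2 -0.41, adjusted p = 0.0395), beside 0.225% and 6.62% of all genes, and 1 gene in each region had an unadjusted p under 0.05. The log2 value of Sirt1 in hippocampus was 0.36 in that fit and did not pass (adjusted p = 0.299). The clock genes Per2 and Cry1 remained past the threshold in both regions under both fits, and the outcome for Nr1d1 is not given here. Because the score and the phase moved together, their parts in these differences cannot be told apart.

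**Figure D3:**
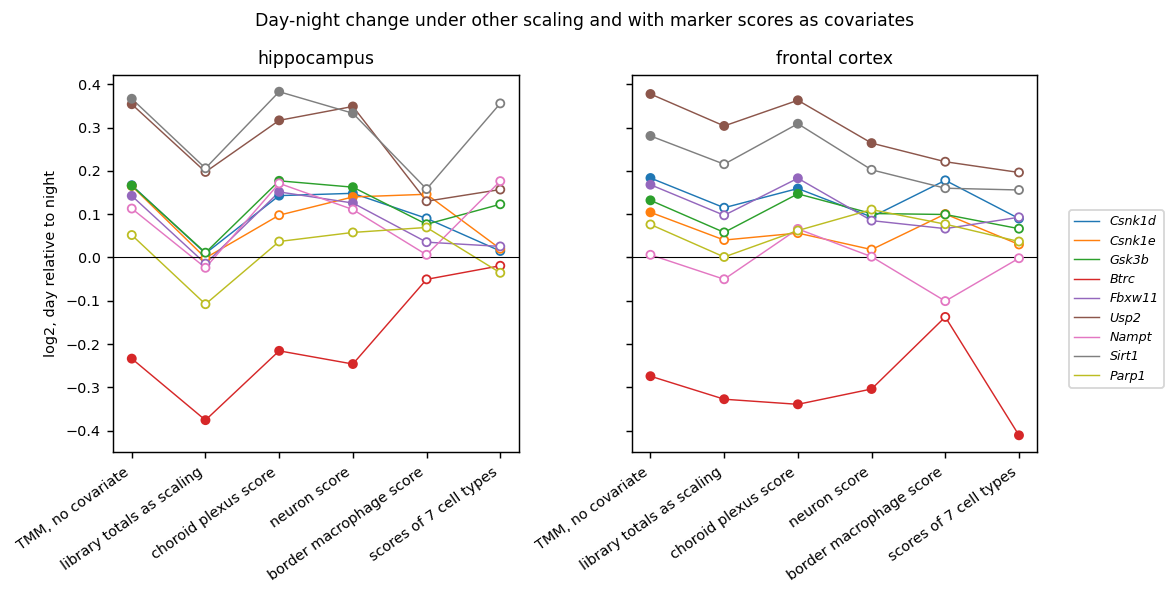
Fitted log2 day relative to night (vertical axis) of the 9 genes under TMM scaling, under library totals, and with the scores of choroid plexus, neuron, border macrophage or all 7 other cell types as covariates, filled where the adjusted p was under 0.05. With the border macrophage score every point is open, and Usp2 moves from 0.35 to 0.13 in hippocampus.

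Within groups, the 9 genes also followed different marker lists. These are descriptions over 32 libraries a region, after subtracting each group's mean on the log2 CPM scale, and libraries share their scaling. For each gene the list with the largest size of mean Pearson's r over both regions is given, of 9 lists (162 relations in all). Fbxw11 and Usp2 rose and sank with the microglia list. Pearson's r for Fbxw11 was 0.78 in hippocampus and 0.82 in frontal cortex (Spearman's rho 0.77 and 0.82), and for Usp2 it was 0.76 and 0.84 (rho 0.68 and 0.82). Csnk1d gave 0.59 and 0.80 with that list and Gsk3b 0.40 and 0.63. Nampt instead followed the endothelial list, with r of 0.69 and 0.82 (rho 0.69 and 0.84), and 0.61 and 0.77 after leaving out the 2 libraries farthest from the median. Csnk1e went against the neuron list (-0.53 and -0.50), as did Sirt1 (-0.55 and -0.37), Btrc against the dissociation response list (-0.61 and -0.49) and Parp1 against the endothelial list (-0.33 and -0.49). In a single region another list could be stronger. Cortical Csnk1e gave -0.666 with the oligodendrocyte list and -0.641 with the endothelial list. Hippocampal Parp1 gave 0.365 with the neuron list and 0.357 with the dissociation response list.

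The day-night difference was then fitted within each condition, with 4 day and 4 night libraries. Csnk1d, Csnk1e, Gsk3b, Fbxw11, Usp2 and Sirt1 were higher in day in all 4 conditions of both regions, and Btrc was lower. In frontal cortex Parp1 was also higher in all 4 (log2 0.003 to 0.22). The pooled calls came from these same libraries, so the shared sign is not separate support for them. The share of all genes with the same sign in all 4 conditions was not counted. Of 36 tests of a gene in a condition, 6 passed in hippocampus and 3 in frontal cortex, where the share of all genes called was 8.08% in Soci, 5.32% in Cogn, 13.2% in Ctr0 and 12.5% in Ctr1 for hippocampus and 6.51%, 5.86%, 5.47% and 4.35% for frontal cortex. With replicate 1 or replicate 2 left out of every group 0 hippocampal tests passed, with replicate 4 left out 1 did, and with replicate 2 or replicate 3 left out 0 cortical tests passed. Usp2 accounted for 5 of these 9 calls. In hippocampus they were Soci (log2 0.48, SE 0.0935), Cogn (0.46, SE 0.0935) and Ctr0 (0.32, SE 0.0936), and in frontal cortex Soci (0.46, SE 0.121) and Cogn (0.47, SE 0.121). Sirt1 passed in Soci in both regions, with log2 differences of 0.50 and 0.48. Fbxw11 in Ctr0 (0.25) and Csnk1e in Ctr1 (0.25) passed in hippocampus. In the Soci groups the Sirt1 values were 17.7, 18.6, 19.1 and 20.3 CPM in day and 12.1, 12.8, 13.03 and 17.3 CPM at night in hippocampus. Those in frontal cortex were 17.0, 17.5, 20.2 and 20.7 CPM against 13.04, 13.3, 13.7 and 14.2 CPM. Neither region's Soci groups overlapped for Sirt1, though in hippocampus the nearest values were 17.7 and 17.3 CPM. How many of all genes showed no overlap in these groups was not counted.

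**Figure D4:**
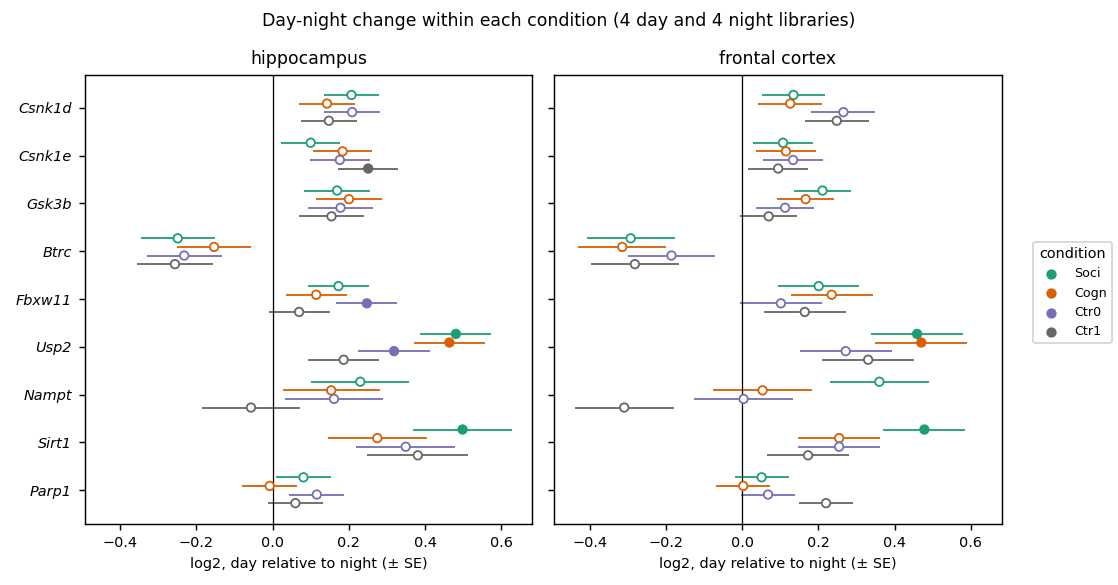
Log2 day relative to night (horizontal axis, with SE) of each gene within Soci, Cogn, Ctr0 and Ctr1, in hippocampus and frontal cortex (n = 4 against 4), filled where the adjusted p was under 0.05. The sign is the same in all 4 conditions for 7 genes in hippocampus and for these and Parp1 in frontal cortex. These are the libraries of the pooled fit, so the shared sign is not separate support. Cortical Nampt spreads from -0.31 in Ctr1 to 0.36 in Soci.

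None of the 9 genes passed the test for a difference among the 4 conditions in either region, and no test of a change in the day-night difference among conditions passed. With edgeR, 1 gene in each region had an unadjusted p under 0.05 for the conditions, namely Csnk1e in hippocampus and Nampt in frontal cortex, and 0 genes passed with DESeq2. Of 54 tests of a gene between 2 conditions in each region, 0 passed with either tool, while 3 and 5 had an unadjusted p under 0.05 with edgeR. The largest hippocampal values were 0.17 for Csnk1e in Soci over Ctr1 (SE 0.0552, adjusted p = 0.285) and -0.18 for Nampt in Soci over Ctr0 (SE 0.0907, adjusted p = 0.558). In frontal cortex they were -0.26 for Nampt in Ctr0 over Ctr1 (SE 0.0924, adjusted p = 0.981) and 0.21 for Usp2 in Soci over Ctr1 (SE 0.0854, adjusted p = 0.524). Over all genes, the conditions together gave 0 calls in either region (0.0% of 16826 and of 16238 genes). Single pairs gave at most 2 calls (0.0119%, Soci against Ctr1 in hippocampus, with 0.00594% for Cogn against Ctr1), and the day-night difference varied among conditions for 0 genes in hippocampus and 0.00616% in frontal cortex.

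Cortical Nampt was the gene whose day-night difference varied most among conditions. In Soci it was 29.3, 32.5, 35.9 and 37.4 CPM in day and 24.1, 25.0, 27.4 and 29.0 CPM at night (log2 0.36, SE 0.131, adjusted p = 0.095). The phases did not overlap there, and the share of all genes without overlap was not counted. In Ctr1 it was 28.0, 30.1, 32.1 and 34.04 CPM in day and 32.4, 36.7, 38.2 and 47.1 CPM at night (log2 -0.31, SE 0.131, adjusted p = 0.162). The test of the difference among conditions gave an unadjusted p of 0.0117 and an adjusted p of 1. Endothelial markers, which Nampt followed within groups, summed to a median of 733 CPM in the cortical Ctr1 night libraries and 405 CPM in Ctr1 day, against 293 CPM in Soci night and 364 CPM in Soci day, and their part in the Nampt values was not tested.

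Between regions, no call was made for the 9 genes. Averaged over the phases, 0 of 9 passed with edgeR or DESeq2, 0 had an unadjusted p under 0.05, and 16.6% of all genes were called. The log2 differences of hippocampus over frontal cortex ran from -0.09 for Nampt (95% interval -0.20 to 0.01) to 0.05 for Parp1 (95% interval -0.003 to 0.09). Within day and within night, 0 of 18 tests passed (1 at an unadjusted p under 0.05, Parp1 at night with log2 0.08 and adjusted p = 0.12), beside 0.00622% and 13.9% of all genes. The day-night difference itself was not called different between the regions for any of the 9 (1.19% of all genes were), with values from -0.07 for Fbxw11 (95% interval -0.19 to 0.06) and Parp1 (-0.16 to 0.03) to 0.07 for Nampt (95% interval -0.14 to 0.27).

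The other genes of these pathways were read from 4 lists with 56 genes. In hippocampus 27 of the 51 tested passed (18 higher and 9 lower in day), and in frontal cortex 22 of 50 (12 higher and 10 lower), with medians of 0.09 and 0.05. These are 52.9% and 44% of the genes tested, beside 42.2% and 41.8% over all genes, so the cortical share is close to the background. Of 18 other kinases and phosphatases of clock proteins, 9 were higher and 2 lower in hippocampus (23.4% and 18.8% over all genes), and 7 were higher and 2 lower in frontal cortex (20.6% and 21.3% over all genes), with medians of 0.12 and 0.11. The catalytic subunits of casein kinase 2, which phosphorylates BMAL1 and PER2, rose by 0.23 (Csnk2a1) and 0.21 (Csnk2a2) on the log2 scale in hippocampus and 0.20 and 0.15 in frontal cortex. Dyrk1a, a kinase of CRY2, rose by 0.17 and 0.16, and Ppp2ca, the catalytic subunit of protein phosphatase 2A, by 0.18 and 0.14. Prkaa2, a catalytic subunit of the energy sensor AMPK, was lower in day by the largest margin of this list. Its log2 difference was -1.26 in hippocampus and -0.56 in frontal cortex. Prkaa1, the other catalytic subunit, was higher in day (0.20 and 0.16, adjusted p = 0.00306 and 0.0138). The cell type behind the Prkaa2 values was not tested.

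Of 12 other ubiquitin ligase parts and deubiquitinases, 6 were higher and 2 lower in hippocampus and 2 higher and 1 lower in frontal cortex (medians 0.11 and 0.07). These are 66.7% and 25% of the list, beside 42.2% and 41.8% over all genes, and with 12 genes each share rests on few calls. Cul1, the scaffold of the SCF ligase that Btrc and Fbxw11 serve, rose by 0.32 in hippocampus and 0.26 in frontal cortex (adjusted p = 4.75e-07 and 3.25e-06). Ube3a, a ligase acting on BMAL1, rose by 0.26 and 0.16. Thus the scaffold and Fbxw11 were higher in day where Btrc was lower.

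The NAD synthesis list held no gene called higher in day. Of those tested, 0 were higher and 3 lower in each region (9 tested in hippocampus and 8 in frontal cortex, medians -0.19 and -0.19). These are 33.3% and 37.5%, beside 42.2% and 41.8% over all genes, and they rest on few genes. By direction, 23.4% of all genes were called higher and 18.8% lower in hippocampus, and 20.6% and 21.3% in frontal cortex. Haao, an enzyme of the route from tryptophan to NAD, fell in both regions (log2 -0.85 and -0.72), as did Nmnat2, a neuronal enzyme that makes NAD from the product of NAMPT (log2 -0.73 and -1.02). Of 6 neuron markers, 4 had a lower mean in day in hippocampus and 6 in frontal cortex, and their part was not tested gene by gene. Of 12 tested NAD consumers 3 rose in each region, while 2 fell in hippocampus and 4 in frontal cortex (medians -0.02 and -0.07), that is 41.7% and 58.3% beside 42.2% and 41.8% over all genes. The tankyrases Tnks2 (0.28 and 0.23) and Tnks (0.15 and 0.10) and Parp3 (0.26 and 0.25), which are poly- or mono-ADP-ribosyltransferases, rose in both regions. The mitochondrial deacetylase gene Sirt3 fell (log2 -0.27 and -0.35), and so did Sarm1, encoding an NAD-cleaving enzyme of axons (log2 -0.40 and -0.39). Sirt1 thus rose beside a sirtuin that fell.

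**Figure D5:**
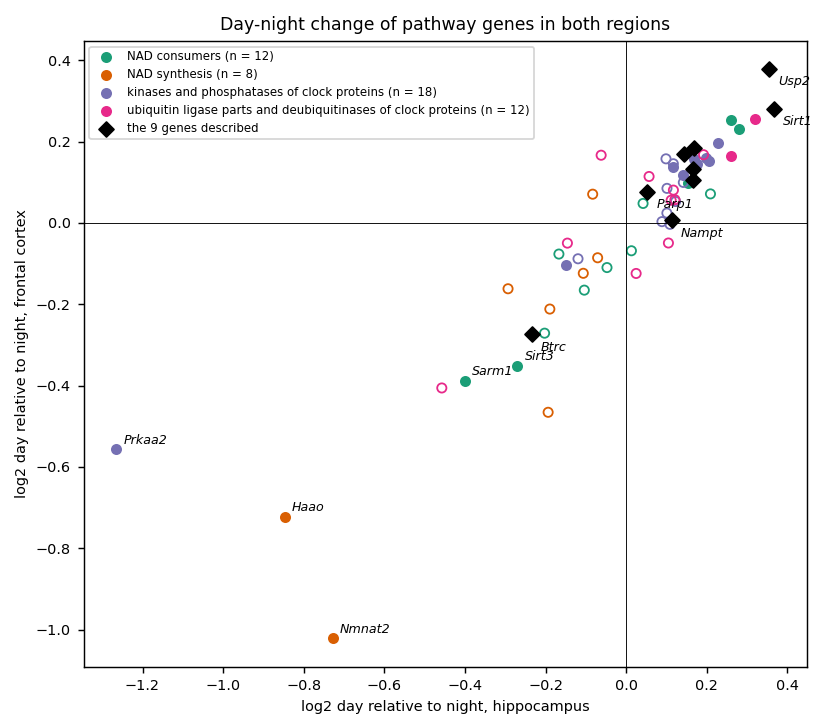
Log2 day relative to night in hippocampus (horizontal axis) and frontal cortex (vertical axis) for the pathway genes tested in both regions, coloured by list and filled where both regions passed, with the 9 genes as black diamonds. Usp2 and Sirt1 lie at the upper right end, and Prkaa2, Haao and Nmnat2 at the lower left.

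Over the 16 group means, the genes most like each of the 9 were found among 10930 genes with a mean log2 CPM of at least 2. Usp2 was most like B4galt1 (r = 0.984) and Golm1 (0.977), Gsk3b like Osbpl11 (0.978) and Kbtbd2 (0.976), and Sirt1 like Xpr1 (0.972) and Lsm14a (0.970). The nearest genes were Tm6sf1 (0.969) and Ncbp3 (0.959) for Csnk1e, Tmx1 (0.961) and Ranbp6 (0.958) for Fbxw11, Msrb2 (0.960) and Ddx18 (0.959) for Csnk1d, and Rasgrp4 (0.955) and Nlrp1b (0.955) for Btrc. Parp1 (Zbtb7b 0.921, Sdf2l1 0.865) and Nampt (Gbp3 0.889, St3gal1 0.888) had looser partners. These correlations run over groups that share a phase, so the points are not independent.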

How the data were processed

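Total RNA of bead-sorted microglia was sequenced as single-end reads in 64 libraries (10.2 M to 84.5 M counted reads each). The authors mapped reads with STAR (version 2.7.3a) to GRCm38.p5 and assigned them to genes with featureCounts (Subread version 2.0.0). The deposited values are raw counts per gene, not normalized. Strand and multi-mapping settings are not given in the sources used here, and reads of circular and linear RNA of a gene are counted together.

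Levels are CPM after TMM scaling over all libraries, with exon lengths from GENCODE M21, a later release than the one the study names. Tests used edgeR (version 4.0.16, R version 4.3.3) quasi-likelihood fits with TMM scaling and filterByExpr, on all genes passing the filter. The SE is the log2 change over the square root of F, and 95% intervals use the degrees of freedom of the fit. DESeq2 (version 1.42.0), other scalings, marker scores and left-out replicates were alternatives. A marker score is the mean log2 CPM (prior count 2) of a list. The steps were tested on simulated data. Groups came from the sample titles. The 9 genes and all lists were chosen with earlier results of these data known. Named pathway genes are those past the threshold in both regions, at most 5 a list by lowest hippocampal p, and likeness names the 2 nearest genes. Prkaa1 was named in addition, as the other catalytic subunit beside Prkaa2. Promoters are RefSeq windows. No 2 replicates of a group agreed within sampling noise (96 pairs compared).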

Additional observations from a re-analysis of the deposited data

Results flagged for a closer look

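Of 144 sets of 4 libraries examined (9 genes in 16 groups), 9 had a library far from the other 3 by its gap relative to the range, where chance gives about 1 in 20, or 7.2. In hippocampus these were Csnk1d in Day Soci replicate 2 (112.1 CPM against 98.1 to 100), Csnk1e in Day Ctr1 replicate 1 (177.6 CPM against 166 to 168), Parp1 in the same library (50.87 CPM against 55.2 to 55.5), Fbxw11 in Day Cogn replicate 2 (78.22 CPM against 64.5 to 66.3), Gsk3b in Night Cogn replicate 1 (93.75 CPM against 109 to 112), Usp2 in Day Ctr0 replicate 4 (102.2 CPM against 89.0 to 91.1) and Sirt1 in Day Ctr1 replicate 2 (15.71 CPM against 16.9 to 17.2). In frontal cortex Usp2 stood apart in Night Ctr0 replicate 3 (88.24 CPM against 68.6 to 71.6) and in Day Ctr0 replicate 3 (102.5 CPM against 85.1 to 86.8). No tested difference between groups in the day-night change of these genes passed the threshold.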

How the results depend on the processing

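For the 18 day-night values of the 9 genes, the call and direction were the same for all 18 with median-of-ratios size factors, DESeq2, condition as a covariate, the replicate number as a block, and without 5 libraries whose totals (24.5, 26.3, 62.2, 65.7 and 84.5 M) lay far from their group, a choice made after seeing the data. Genes passing day against night (7 in each region) became 1 and 2 with library totals alone, 0 and 1 with 7 cell type scores, 0 and 0 with the border macrophage score (hippocampus, then frontal cortex), and 2 in frontal cortex with the neuron score (where 2915 of all 14975 genes passed). Leaving out a replicate number gave 4 to 7 and 5 to 8, the 4 in hippocampus without replicate 2. Within conditions the 6 hippocampal calls became 0 with library totals, 7 scores or the border macrophage score, 2 without the count filter and 3 with the choroid plexus score, and 0 to 7 with a replicate number left out. The 3 cortical ones became 0 with library totals, 7 scores or the border macrophage score, 1 with the neuron score and 5 with DESeq2, and 0 to 2 with a replicate number left out.

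With library totals alone, 5 genes passed among the 4 hippocampal conditions and 9 of 54 pairs did, and leaving out a replicate number gave 0 to 1 pairs. Between regions 1 gene passed with library totals (Nampt, -0.20) and 1 with the neuron score, and 3 of 18 within phases with the neuron score. For counts within conditions, among conditions and between regions under these other settings, the share of all genes is not given. Such counts are therefore not read as results about the 9 genes. Pathway genes (27 and 22) became 12 and 9 with library totals, 0 and 2 with 7 scores, 1 and 4 with the border macrophage score, 17 in hippocampus with the choroid plexus score and 10 in frontal cortex with the neuron score, and ran from 15 to 27 and 13 to 28 with a replicate number left out. Signs turned for 4 hippocampal genes with library totals (Csnk1e -0.0011, Fbxw11 -0.0142, Nampt -0.0238, Parp1 -0.1079) and for Parp1 without replicate 2 (-0.0220, in a range up to 0.0637 over the replicates) and with 7 scores (-0.0354). Cortical Nampt turned with library totals (-0.0503), without replicate 3 (-0.0312, in a range up to 0.0337), without the 4 abundant loci (-0.0210), with 7 scores (-0.0017) and with the border macrophage score (-0.1008), and Parp1 between regions with library totals (-0.0588). The cause of these changes was not tested. Libraries with the same replicate number deviated together in part: mean r was 0.30 for number 1 and 0.22 for number 3 in frontal cortex, and from -0.05 to 0.08 for the other numbers. Not every pair was over 0.1 for any number, so the numbers were not taken as pairs. With the replicate block 7 genes passed in each region. Counting error and spread between libraries were not separated, and the lowest counts were those of Sirt1 (124) and Btrc (134).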
